A study of Mus musculus with 8 samples.

Results

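The genes of the nuclear pore and of nuclear transport were followed in Neuro2A (N2A) cells during the hours after activation of the cannabinoid 1 receptor (CB1R). Members were chosen by symbol alone: nucleoporins named Nup with a number, the importin alpha and importin beta genes (Kpna, Kpnb1, Ipo, Tnpo), the exportins (Xpo), genes named Ranbp with a number, and Ran, Rangap1, Rcc1, Tpr, Aaas, Ndc1, Pom121, Cse1l, Nxf1 and Nxt1. The rule found 57 genes among the 16974 genes of the expression table. Nup133, Nup62 and Kpna5, which belong to the same families, were not analysed here.

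N2A cells come from a mouse neuroblastoma, a tumor of the sympathetic nervous system, and grow neurites when the CB1R agonist HU210 is added. All cells were kept for 16 h in serum-free medium and then received 2 µM HU210 or an equal volume of drug-free DMSO, and were taken at 2, 4, 6 or 8 h. Each of these 8 conditions is represented by 1 mRNA library, made from a pool of 2 to 3 independent experiments, so that no difference at a single time point has a replicate check. Expression is given as FPKM, a fragment count divided by transcript length and scaled within each library, here by upper-quartile normalization. The number of reads behind each value is unknown from the values used here.

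Between 11328 and 11444 genes per library had an FPKM of at least 1. Of 13 neuroblastoma genes, 12 were in the table and 9 had an FPKM of at least 1 in every library. Stmn2 had 129 to 157 and Hand2 70.5 to 108. Th (1.75 to 2.25) and Dbh (0.73 to 1.44) were low, and the neurofilament genes Nefl and Nefm, where listed, stayed under 0.01. The summed FPKM of the 12 genes was 404 to 488 per library. The summed FPKM of 7 glial, immune and fibroblast genes was 6.33 to 8.21, of which Mbp alone made up 3.59 to 5.10.

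The nuclear pore is a ring-shaped channel through the nuclear envelope. An outer ring (the Y complex) and an inner ring form its scaffold, membrane proteins anchor it, flexible nucleoporins fill the central channel, and filaments extend into the cytoplasm and form a basket in the nucleus. Cargo crosses it bound to receptors. Importin alpha recognizes the classical nuclear localization signal and is carried by importin beta (Kpnb1), other members of the importin beta family carry their cargo directly, and exportins carry cargo outward. The small GTPase Ran sets the direction: Rcc1 loads it with GTP in the nucleus, where it releases imported cargo and binds exportins, and Rangap1 triggers GTP hydrolysis in the cytoplasm.

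Of the 57 members, 54 had an FPKM of at least 1 in all 8 libraries. Kpna7 had at most 0.062 and Nup210l 0.34 to 0.40, and Ranbp17, a paralog of Xpo7, was listed at 5.08 to 6.14 but not at 8 h. The members were well expressed genes, with a median of their mean FPKM of 35.5 against 12.7 over the 11311 genes with a mean FPKM of at least 1. On the FPKM scale, which accounts for transcript length, Ran stood highest with a mean of 298, followed by Ranbp1 (158), Kpnb1 (155), Rangap1 (127), Tpr (124) and Nup85 (108). The ranges of Ranbp1, Kpnb1, Rangap1 and Tpr over the 8 libraries overlapped. The range of Nup85 (86.0 to 126.3) overlapped those of Rangap1 and Tpr. It lay below the lowest values of Ranbp1 (129.9) and Kpnb1 (129.6). The lowest value of Ran (228) was above the highest of each of these genes (208, for Kpnb1).

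**Figure D1:**
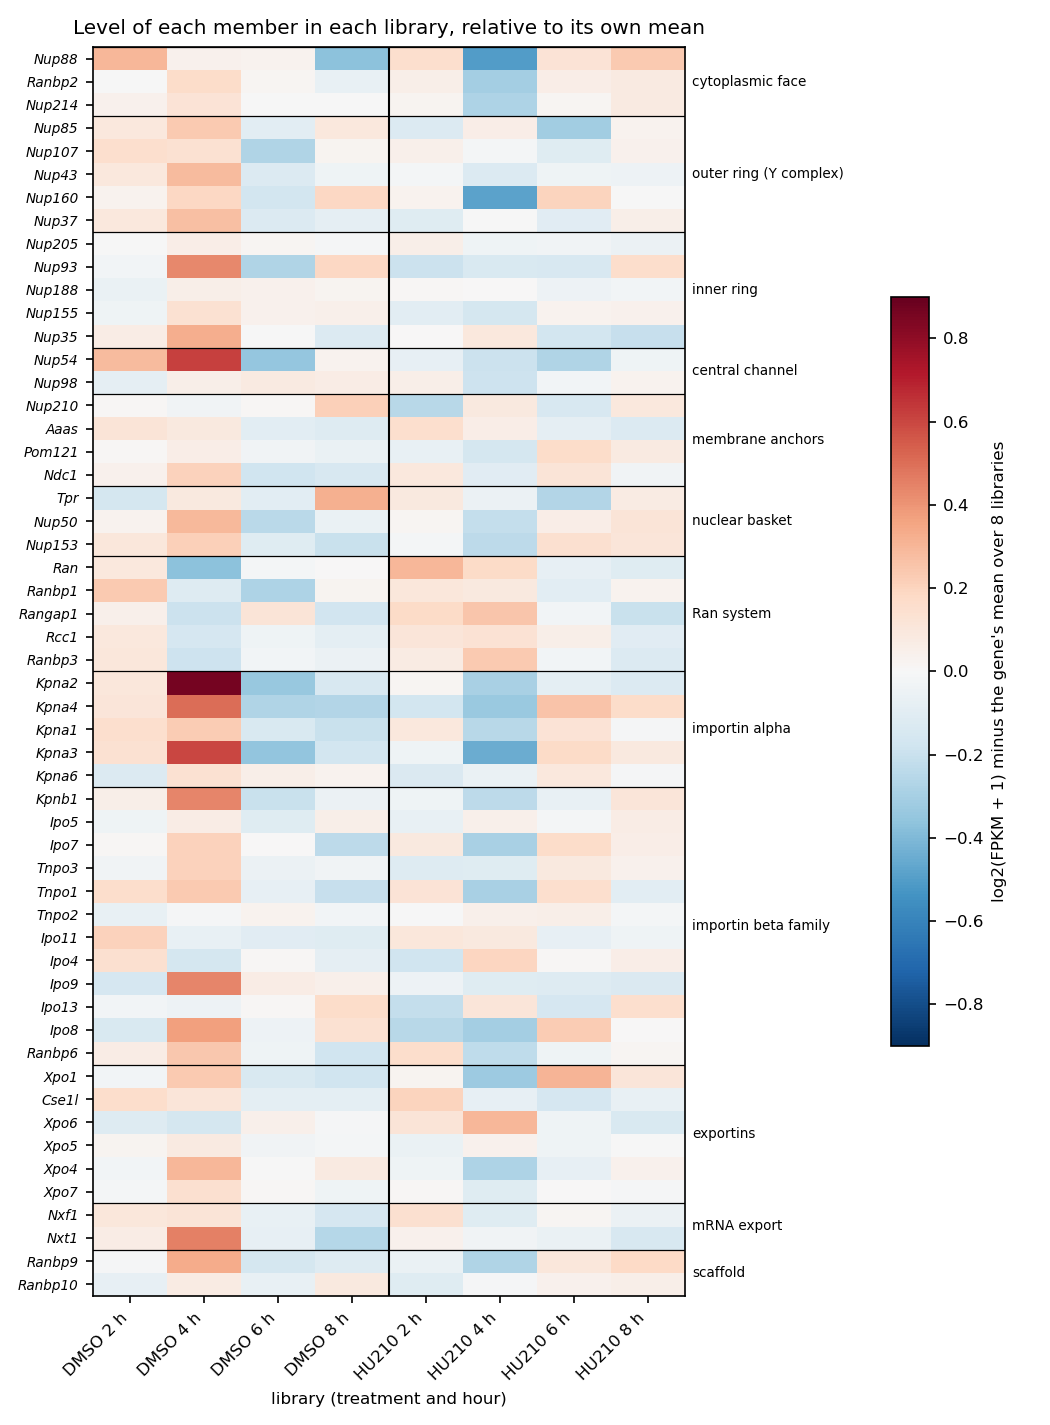
Level of 54 members in each of the 8 libraries, as log2(FPKM + 1) minus the mean of the same gene over the libraries, ordered by role. Red cells are above and blue cells below the gene's own mean, and the DMSO 4 h column is mostly red while the HU210 4 h column is mostly blue, except for the Ran system, where the colors are opposite.

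More members differed between the HU210 and the DMSO library at 4 h than at any other hour, with the DMSO library of the same hour as the reference. The log2(fold change) was taken after adding 1 to each FPKM, as HU210 over DMSO of the same hour, and a gene was counted as higher or lower past 1.3-fold if both of its FPKM were 1 or more. At 4 h, 23 of 55 members were lower with HU210, where 19.8% of 11177 genes were lower, and 4 of 55 were higher, where 8.9% of all genes were higher. The median log2(fold change) of the members was -0.25, against -0.08 over all genes, and 44 of 55 members lay below 0, as did 59.0% of all genes. Because these are bulk libraries of a cell population, fewer cells of a kind and less mRNA per cell cannot be told apart.

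The importin alpha genes showed the largest differences of all members at 4 h. Of 6 importin alpha genes, 4 were lower with HU210 past 1.3-fold, and the median log2(fold change) of the 6 was -0.66. The 6 and their median include Kpna7 (-0.07), whose FPKM was under 1 and which was not among the genes counted above. Kpna2, at chr11:106849943-106860855 on the minus strand of mm9, had an FPKM of 49.0, 83.7, 35.7 and 41.1 at 2, 4, 6 and 8 h with DMSO. With HU210 it had 46.1, 37.1, 42.8 and 41.8 at the same hours. Its value of 83.7 in the DMSO 4 h library stood far above the other 7 libraries, which lay between 35.7 and 49.0, and the log2(fold change) at 4 h was -1.15.

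Kpna3, at chr14:61984023-62058784, had an FPKM of 18.8, 26.2, 13.1 and 15.0 with DMSO. With HU210 it had 16.5, 12.2, 19.2 and 18.1. Its highest library was DMSO 4 h and its lowest HU210 4 h, with a log2(fold change) of -1.05 at 4 h. Kpna4, at chr3:68871071-68931035, had an FPKM of 31.5, 41.7, 24.0 and 24.1 with DMSO and 25.8, 22.9, 34.9 and 32.7 with HU210. It had the same extremes as Kpna3, and its log2(fold change) at 4 h was -0.84. For all 3 genes the values of the 4 DMSO libraries and of the 4 HU210 libraries overlapped.

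Kpna1 was lower by less, with a log2(fold change) of -0.48 at 4 h, and Kpna6 had -0.20, under the cutoff. Summed over the family, the importin alpha FPKM was 194 in the DMSO 4 h library and 105 in the HU210 4 h library, and 109 to 137 in the other 6. Kpna2 made up 43.1% of the summed importin alpha FPKM in the DMSO 4 h library and 31.2% to 36.8% in the others, so the makeup of the family in that library differed as well as its sum.

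**Figure D2:**
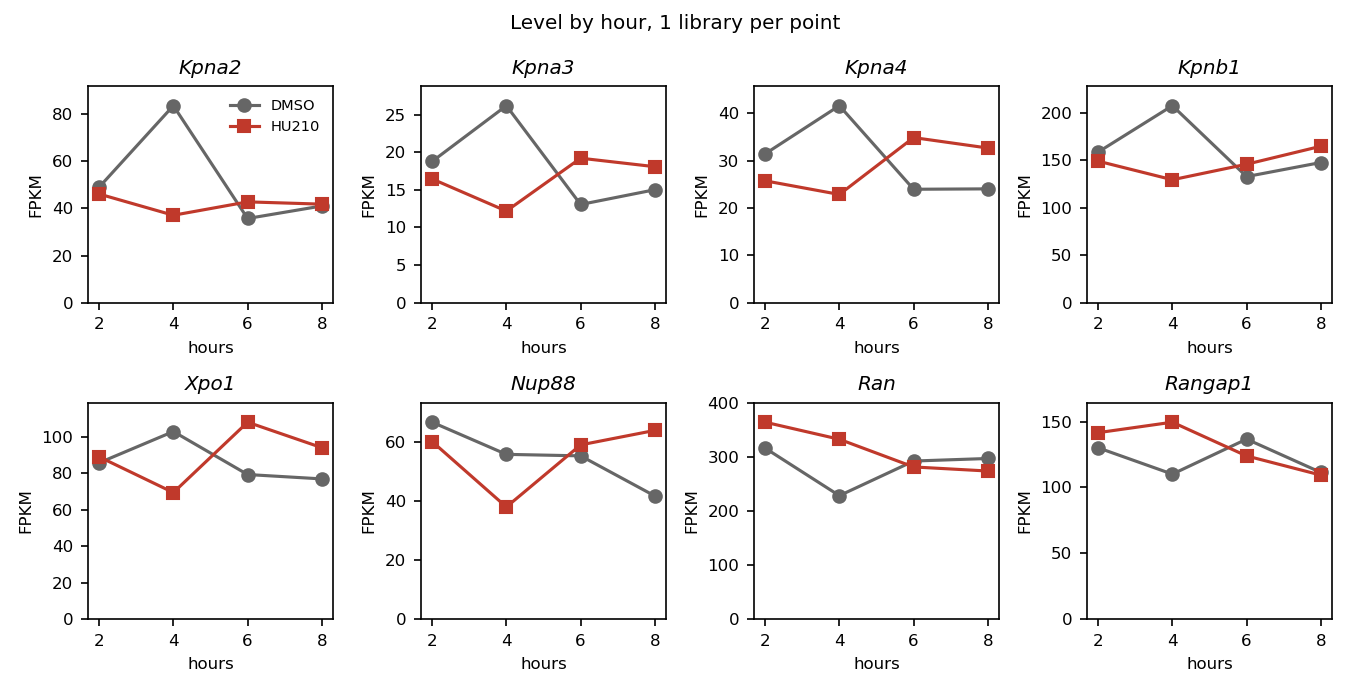
FPKM of 8 members at 2, 4, 6 and 8 h with DMSO (grey circles) and HU210 (red squares), 1 library per point, on linear axes that start at 0. Kpna2, Kpna3, Kpna4, Kpnb1 and Xpo1 have their highest DMSO value and their lowest HU210 value at 4 h, Ran has its lowest DMSO value there, and Nup88 has its lowest DMSO value at 8 h.

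Of the 12 importers of the importin beta family, 6 were lower at 4 h and none was higher, with a median log2(fold change) of -0.40. Kpnb1, the partner of importin alpha, lies at chr11:97021028-97049195. It had an FPKM of 159, 208, 133 and 148 with DMSO and 149, 129.6, 146 and 165 with HU210, and a log2(fold change) of -0.68 at 4 h. As for Kpna1, Kpna3 and Kpna4, its DMSO 4 h library was the highest of the 8 and its HU210 4 h library the lowest. Of the exons of Kpnb1, 7.07% of the bases are shared with another annotated gene on the opposite strand, and the strand setting of the read assignment is not given in the sources used here.

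The other importers that were lower at 4 h were Ipo8 (log2(fold change) -0.67), Ipo9 (-0.55), Tnpo1 (-0.53), Ipo7 (-0.50) and Ranbp6 (-0.47). Ipo7 and Ipo9 import ribosomal proteins and histones, Tnpo1 imports hnRNP proteins, and Ranbp6 is a paralog of Ipo5. Tnpo3, the importer of SR splicing factors, had -0.32, under the cutoff. Ipo5, Tnpo2, Ipo11 and Ipo13 lay between -0.02 and 0.16. Ipo4, another importer of histones, had 0.35, also under the cutoff, and 12.8% of its exon bases are shared with Tm9sf1 on the same strand.

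Among the 7 exportins, 2 were lower and 1 was higher at 4 h. Xpo1, the receptor for the leucine-rich nuclear export signal, lies at chr11:23156041-23198249. It had an FPKM of 85.6, 102.7, 79.2 and 76.8 with DMSO and 88.9, 69.3, 107.9 and 93.9 with HU210, and a log2(fold change) of -0.56 at 4 h. Xpo4, which exports the translation factor eIF5A, had -0.58. Cse1l, which returns importin alpha to the cytoplasm, had -0.18, under the cutoff. Xpo5, the exporter of microRNA precursors, had -0.04.

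Xpo6, the exporter of actin with profilin, was the exportin with the opposite sign. At chr7:133245229-133344015, it had an FPKM of 55.2, 53.7, 62.0 and 59.4 with DMSO and 65.1, 73.8, 58.2 and 54.4 with HU210. The HU210 4 h library was the highest and the DMSO 4 h library the lowest, and the log2(fold change) at 4 h was 0.45. Of the pair that exports bulk mRNA, Nxt1 was lower (-0.48) and its larger partner Nxf1 had -0.23.

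The Ran system went the other way as a group. All 5 of its genes lay above 0 at 4 h, 3 of them past 1.3-fold, with a median log2(fold change) of 0.43. Ran, at chr5:129525944-129530198, had an FPKM of 316, 228, 292 and 297 with DMSO and 364, 333, 281 and 274 with HU210. Its DMSO 4 h library was the lowest of the 8, and the log2(fold change) at 4 h was 0.54. The processed copy Rasl2-9 had an FPKM of 0.37 to 1.03, so few of the assigned reads were listed under it.

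Rangap1, at chr15:81534678-81560349, had an FPKM of 130.2, 110.1, 137 and 111 with DMSO and 142, 149.6, 124 and 109 with HU210. Its HU210 4 h library was the highest of the 8, and the log2(fold change) at 4 h was 0.44. Ranbp3, a cofactor of Xpo1, had 0.43 and the exchange factor Rcc1 had 0.28. Ranbp1, which helps Rangap1 to act on Ran bound to export complexes, had 0.20.

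The summed FPKM of the Ran system was lowest in the DMSO 4 h library, at 558, and highest in the HU210 2 h library, at 764. Its ratio to the summed importin alpha FPKM was 5.25, 2.87, 5.90 and 5.64 with DMSO at 2, 4, 6 and 8 h and 6.09, 7.07, 4.65 and 4.80 with HU210. The lowest and the highest ratio thus both came from the 4 h libraries, and the ranges over the 2 treatments overlapped.

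**Figure D3:**
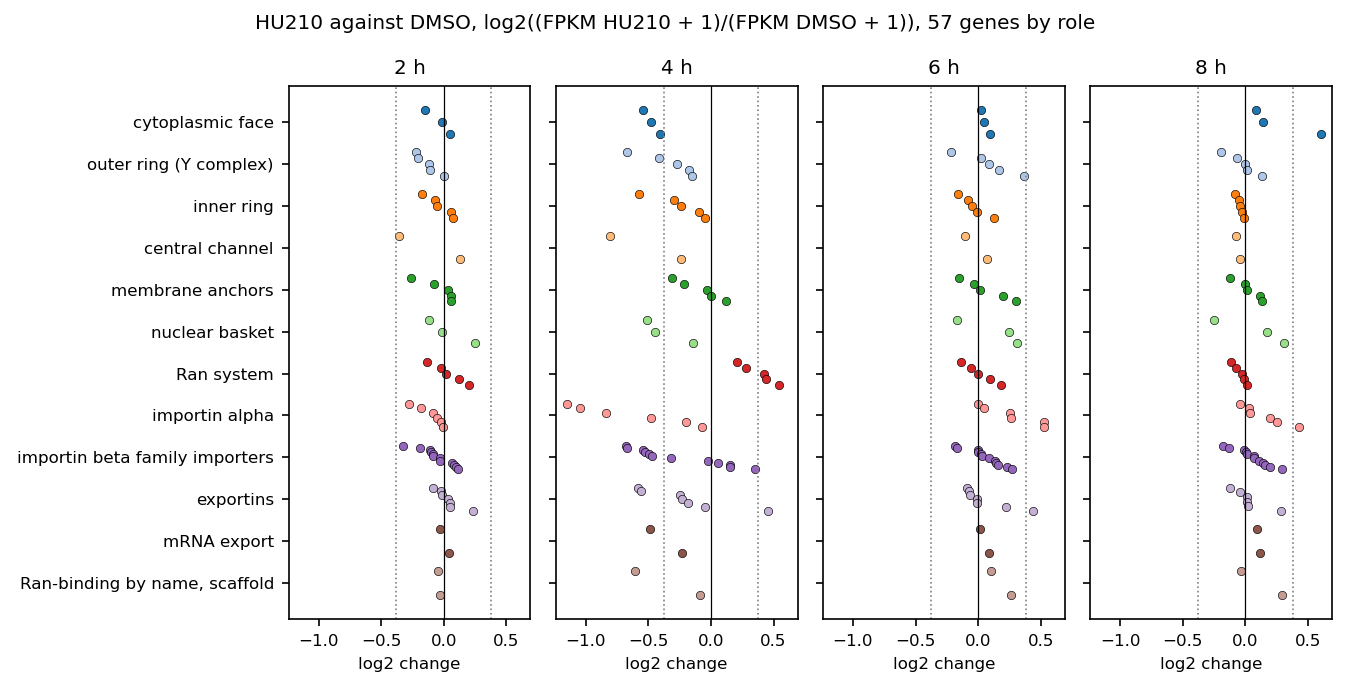
The log2(fold change) of each member between the HU210 and the DMSO library at 2, 4, 6 and 8 h, with 1 row per role and 1 point per gene (57 genes, 56 at 8 h). Dotted lines mark 1.3-fold, and at 4 h all 3 genes of the cytoplasmic face and 4 of the 6 importin alpha genes lie left of the lower line while 3 of the 5 genes of the Ran system lie right of the upper one.

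Of the structural nucleoporins, the cytoplasmic face was lower throughout at 4 h. Nup88 (log2(fold change) -0.54), Ranbp2 (-0.48) and Nup214 (-0.41) were all past 1.3-fold. Ranbp2 forms the cytoplasmic filaments that hold Rangap1, and Nup88 and Nup214 form a complex at their base. In the nuclear basket Nup50 (-0.51) and Nup153 (-0.45) were lower and Tpr, which makes up the basket filaments, had -0.14.

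In the outer ring, 2 of 5 genes were lower, Nup160 (log2(fold change) -0.67) and Nup43 (-0.41), and the remaining 3 had -0.27 to -0.15. In the inner ring 1 of 5 was lower, Nup93 (-0.57), and Nup205 and Nup188, the large scaffold proteins, had -0.09 and -0.05. The channel nucleoporin Nup54 had -0.81 and Nup98 -0.24. None of the 5 membrane anchor genes was past the cutoff, and their median was -0.03, with Nup210l included although its FPKM was under 1. Subunits of 1 ring differed among themselves by as much as the rings did.

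Nup54 had an FPKM of 30.2, 38.3, 19.2 and 25.3 with DMSO and 23.4, 21.5, 20.3 and 24.0 with HU210. Its HU210 4 h value lay within the range of the other HU210 libraries, while its DMSO 4 h value was the highest of all 8. Nup160 had 26.3, 29.5, 22.9 and 29.5 with DMSO and 26.3, 18.2, 29.8 and 25.7 with HU210. Here the HU210 4 h library was the one that stood apart. Both genes and Kpnb1 were given in full after their values had been seen. Ranbp9 and Ranbp10, scaffold proteins of a ubiquitin ligase that carry the family name, had log2(fold change) values of -0.61 and -0.09 at 4 h.

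The 4 h difference had a part in each of the libraries. Of the 54 members tested, 32 (59.3%) had their highest value of all 8 libraries in DMSO 4 h, as did 27.3% of all genes, and 21 (38.9%) had their lowest in HU210 4 h, as did 20.4% of all genes. The DMSO 4 h library lay above all other 3 DMSO libraries in 36 members (66.7%, against 37.8% of all genes), and the HU210 4 h library below all other 3 HU210 libraries in 25 members (46.3%, against 35.5%). Both held for 23 members (42.6%, against 20.3%).

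The share of the 2 libraries differed between genes. On the log2(FPKM + 1) scale, Kpna2 was 0.99 above the mean of the other 3 DMSO libraries in DMSO 4 h and 0.23 below the mean of the other 3 HU210 libraries in HU210 4 h, whereas for Nup88 these differences were 0.06 and -0.67. Kpna3 deviated in both, by 0.73 and -0.52. Ran deviated by -0.40 in DMSO 4 h and 0.13 in HU210 4 h.

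**Figure D4:**
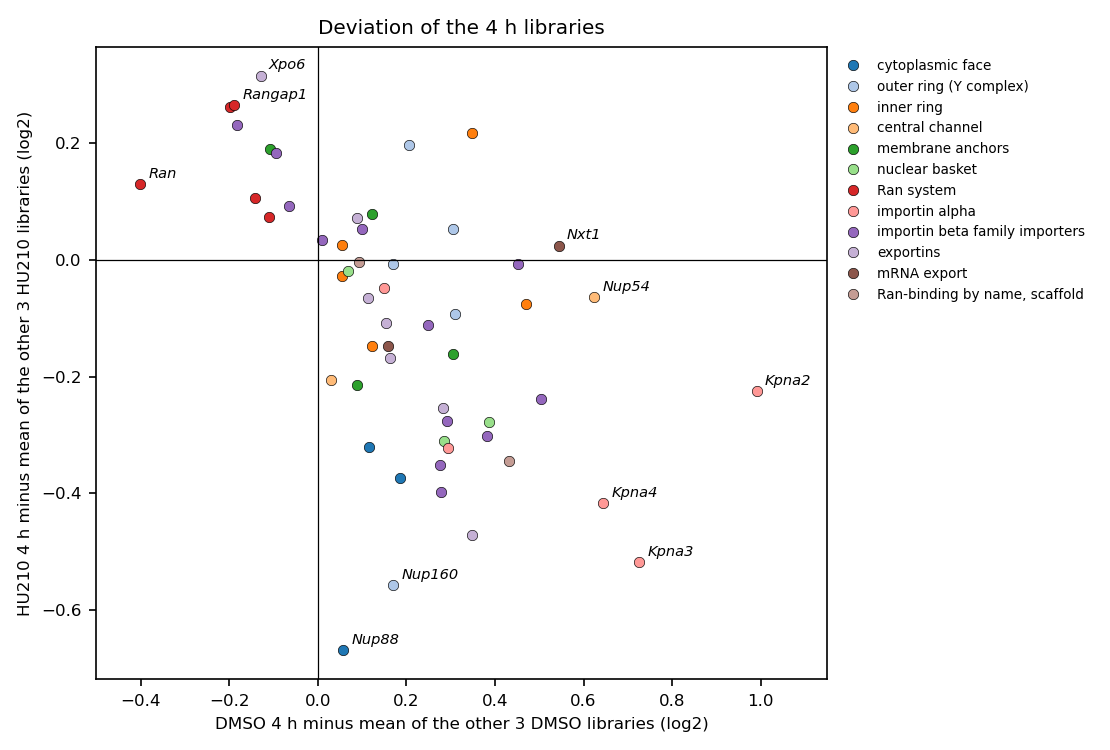
Deviation of the DMSO 4 h library from the mean of the other 3 DMSO libraries (x axis) and of the HU210 4 h library from the mean of the other 3 HU210 libraries (y axis), both on the log2(FPKM + 1) scale, with 1 point per member colored by role. Kpna2, Kpna3 and Kpna4 lie farthest to the right, Nup88 and Nup160 lie lowest, and the Ran system (red) lies at the upper left.

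The number of members past the cutoff therefore depended on the DMSO 4 h library. With the mean of the other 3 DMSO libraries as the reference, 2 of 55 members were lower at 4 h (Nup160 at -0.50 and Nup88 at -0.49 on the log2 scale) and none was higher, where 3.04% of all genes were lower and 1.41% higher. Kpna2 then had -0.16, Kpna3 -0.32 and Kpna4 -0.19. All 5 genes of the Ran system stayed above 0, between 0.09 for Ranbp1 and 0.25 for Rangap1. Whether the DMSO 4 h pool or the hour itself set these levels cannot be told apart with 1 library per condition.

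The difference at 4 h also moved with the base composition of the transcripts. Over 55 members, Spearman's rho between the log2(fold change) at 4 h and the GC content of the longest coding transcript was 0.57, and over 10506 genes it was 0.54. These are correlations across genes within the same libraries, and genes are not independent replicates. The members were somewhat poorer in GC than other genes, with a median of 47.6% against 50.5%. At 6 h rho was -0.40 over the members and -0.30 over all genes, at 8 h -0.38 and -0.15, and at 2 h 0.04 and 0.17.

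Within bins of GC content, the median of the members lay below that of all genes in most bins. Under 42% GC the median log2(fold change) at 4 h was -0.51 over 8 members and -0.34 over 1018 genes, at 44% to 46% it was -0.45 over 9 members and -0.27 over 976 genes, and at 48% to 50% it was -0.23 over 9 members and -0.14 over 1132 genes. At 46% to 48% it was -0.37 over 10 members and -0.23 over 1081 genes. At 50% to 52% the 1 member had -0.18 and all genes -0.07, and at 52% to 54% 6 members had -0.01 and all genes 0.02. At 42% to 44% the 4 members lay slightly above all genes (-0.28 against -0.33), and from 54% upward the 8 members and all 3287 genes had the same median of 0.14. After a trend on GC content and transcript length was subtracted from all genes, 9 members were lower and 3 higher at 4 h, where 9.19% of all genes were lower and 8.65% higher, and the members' median was -0.07. Kpna2 (-0.93), Kpna3 (-0.68), Nup54 (-0.57), Nxt1 (-0.54), Kpnb1 (-0.45), Ranbp9 (-0.41), Nup93 (-0.41), Kpna4 (-0.41) and Ipo8 (-0.39) remained past the cutoff. Ran had a GC content of 47.9% and a log2(fold change) of 0.71 after subtraction of the trend, more than the 0.54 before it. The other 2 members past the cutoff on this side were Ipo11 (0.47) and Xpo6 (0.46), while Rangap1 (0.37) and Ranbp3 (0.28) were no longer past it. The part of base composition in the differences of single members was not tested.

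**Figure D5:**
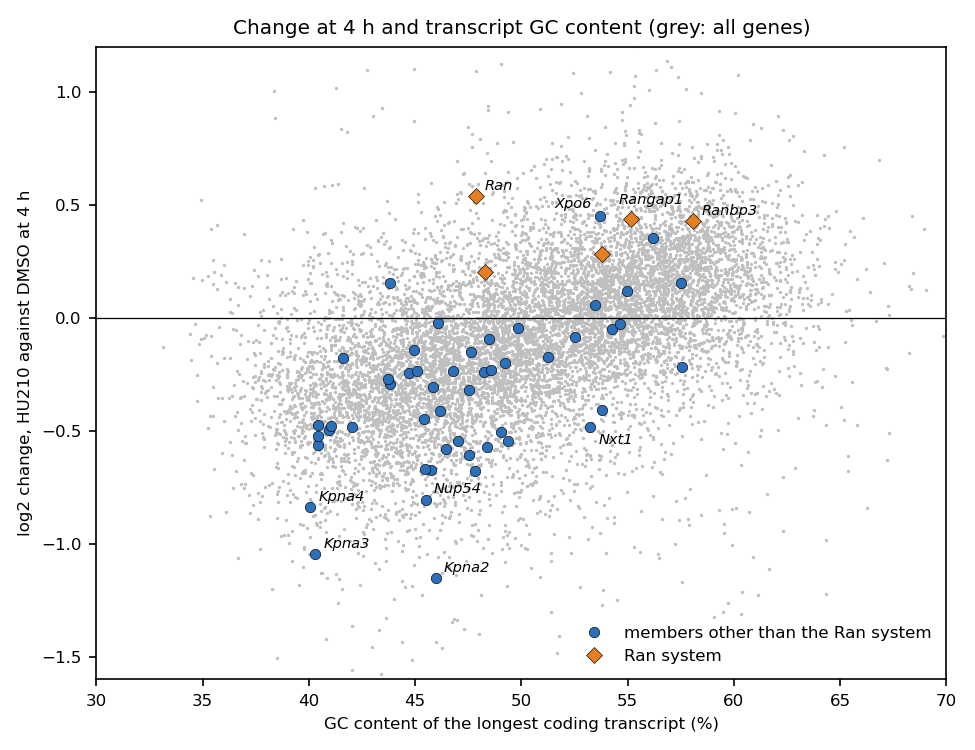
The log2(fold change) at 4 h against the GC content of the longest coding transcript in percent, for all genes (grey), members outside the Ran system (blue circles) and the Ran system (orange diamonds). Of 10506 genes, 17 lie outside the plotted range, and Ran (0.54) lies above most genes of its GC content while Kpna2 (-1.15) and Nxt1 (-0.48) lie below most.

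The bases upstream of the annotated start are shown for members on both sides of the 4 h difference, since sets of genes that differ together can be searched for shared promoter letters. They are the 100 bases before the start in the RefSeq annotation of GRCm38.p6, written 5′ to 3′ on the strand of the gene, with capitals for a CCAAT box (CCAAT or ATTGG) or a GC box (GGGCGG or CCGCCC). Kpna3 has no entry in the table used. Kpna2, Kpna4, Kpnb1 and Nup88 were lower at 4 h, and Ran and Rangap1 were higher.
Kpna2 (chr11:106999526-106999625): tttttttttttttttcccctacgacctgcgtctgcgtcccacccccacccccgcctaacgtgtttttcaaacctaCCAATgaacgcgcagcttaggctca
Kpna4 (chr3:69127093-69127192): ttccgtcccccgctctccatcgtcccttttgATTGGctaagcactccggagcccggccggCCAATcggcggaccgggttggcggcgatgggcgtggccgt
Kpnb1 (chr11:97187893-97187992): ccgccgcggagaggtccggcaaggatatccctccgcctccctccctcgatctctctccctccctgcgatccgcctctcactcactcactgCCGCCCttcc
Nup88 (chr11:70969974-70970073): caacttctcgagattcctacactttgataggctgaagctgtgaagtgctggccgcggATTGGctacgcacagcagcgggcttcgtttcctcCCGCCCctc
Ran (chr5:129020056-129020155): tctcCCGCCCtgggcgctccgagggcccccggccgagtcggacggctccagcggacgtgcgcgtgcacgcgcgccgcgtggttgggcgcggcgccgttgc
Rangap1 (chr15:81729920-81730019): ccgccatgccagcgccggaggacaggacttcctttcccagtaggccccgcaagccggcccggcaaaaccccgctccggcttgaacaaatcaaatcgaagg

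Within these 100 bases, Kpna2 had 1 CCAAT box that began 25 bases before the start, Kpna4 had a pair at 69 and 40 bases, and Nup88 had 1 at 43 bases. Kpnb1, Ran and Rangap1 had none there. Over windows of 300 bases (250 before and 50 after the start), 45 members matched with 54 windows, and 9 of these genes had 2 windows that can share sequence. A CCAAT box on either strand lay in 46.3% of member windows, 38.6% of the windows of expressed genes and 37.4% of all windows. It lay in 14 of 23 windows of members that were lower at 4 h and in 11 of 31 windows of the other members.

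The GC box lay in 66.7% of member windows and 64.2% of those of expressed genes, in similar shares of members that were lower at 4 h (15 of 23) and of the others (21 of 31). The ETS letters CCGGAAG lay in 16.7% of member windows and 18.6% of expressed ones, the E box CACGTG in 14.8% and 10.1%, the NRF1 core GCATGCGC in 11.1% and 5.57%, and the E2F letters TTTGGCGC or TTTCCCGC in 3.70% and 3.00%, each on both strands. Of all 32851 windows, the shares with these letters were 35.7% for the GC box, 8.86% for ETS, 7.15% for the E box, 2.71% for NRF1 and 1.56% for E2F. A match of letters describes the window and says nothing of binding.

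At 6 h, 3 of 55 members were higher with HU210, where 6.26% of all genes were higher, and none was lower, where 1.44% were lower. The 3 were Kpna3 (log2(fold change) 0.52), Kpna4 (0.52) and Xpo1 (0.44), and each of them had been lower at 4 h. Of the 23 members that were lower at 4 h, 20 lay above 0 at 6 h, as did 90.0% of the 2185 genes of the table that were lower at 4 h. Of those genes 22.2% were higher at 6 h past 1.3-fold. The members' median at 6 h was 0.05, against 0.06 over all genes, and it turned to -0.01 with both libraries scaled to a median ratio of 1.

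None of these 3 was past the cutoff with another DMSO reference. The DMSO 6 h library was the lowest of the DMSO libraries for Kpna3 and Kpna4, and the second lowest for Xpo1. Against the mean of the other 3 DMSO libraries, Kpna3 had a log2(fold change) of -0.02 at 6 h, Kpna4 0.14 and Xpo1 0.29. Xpo1 had its highest value of all 8 libraries, 107.9, in HU210 6 h. After subtraction of the GC and length trend, none of the 3 was past the cutoff (0.34 for Kpna3, 0.37 for Kpna4 and 0.26 for Xpo1).

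At 8 h, 2 of 54 members were higher, where 4.11% of all genes were higher, and none was lower, where 1.29% were lower. Kpna4 was higher again (log2(fold change) 0.43), but under the cutoff against the mean of the other 3 DMSO libraries (0.05) and after subtraction of the GC and length trend (0.33). Nup88 had the largest difference (0.60). Nup88, at chr11:70756560-70783475, had an FPKM of 66.8, 55.9, 55.4 and 41.8 with DMSO and 60.2, 38.0, 59.1 and 64.0 with HU210. Its DMSO 8 h library was the lowest of the DMSO libraries, while its HU210 8 h value lay below the DMSO value at 2 h, and against the mean of the other 3 DMSO libraries the log2(fold change) was 0.11. The members' median at 8 h was 0.02 (0.04 over all genes), and it turned to -0.03 with centred pairs.

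At 2 h no member was past the cutoff in either direction, where 1.33% of all genes were higher and 3.71% lower. The members ranged from -0.35 for Nup54 and -0.32 for Ipo4 to 0.23 for Xpo6 and 0.25 for Tpr on the log2 scale. Their median was -0.03 (-0.05 over all genes), which turned to 0.02 with centred pairs. Over the 4 time points, 27 members were past the cutoff at 1 time point or more and 30 at none.

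A model over all 8 libraries asked whether the members differed between HU210 and DMSO across the hours (limma on log2(FPKM + 1), with the time point as a factor). It takes the spread between time points as the error, since each condition has 1 library. None of the 54 members tested, and 0.0% of 11311 genes, passed an adjusted p of 0.05. At an unadjusted p under 0.05 there were 148 genes and none of the members. The members' median log2(fold change) was -0.04, against -0.003 over all genes. Of the 54 members, 38 lay below 0 and 16 above, where 48.4% of all genes lay above. Without the 4 h pair the median was 0.02 for the members and 0.02 over all genes.

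Between the late hours (6 h and 8 h) and the early hours (2 h and 4 h), regardless of treatment, again none of the members and 0.0% of the genes passed the adjusted p in limma. Unadjusted, 4 of 54 members passed, as did 7.21% of all genes, and all 4 were lower at the late hours. Without the 2 h, the 6 h or the 8 h pair 1 member passed unadjusted, against 2.47%, 6.64% and 3.49% of all genes. Without the 4 h pair 7 did, 1 of them higher late, against 14.9% of all genes. The 4 were Aaas, a nucleoporin held by Ndc1 (log2 difference -0.21, SE 0.06, limma adjusted p = 0.61), Nup35 of the inner ring (-0.25, SE 0.08, adjusted p = 0.63), Cse1l (-0.20, SE 0.08, adjusted p = 0.68) and Nxt1 (-0.27, SE 0.11, adjusted p = 0.68). Aaas, given in full after its values had been seen, had an FPKM of 37.6, 36.9, 32.3 and 31.9 with DMSO and 38.5, 36.1, 32.6 and 31.7 with HU210. Both treatments thus followed the same course, and the early and the late libraries did not overlap.

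A further model asked whether the effect of HU210 differed between the late and the early hours. None of the members and 0.0% of the genes passed the adjusted p in limma, and 12 of 54 members passed unadjusted, against 15.8% of all genes. Of these, 11 had a higher log2(fold change) late than early, with Kpna4 (difference of 1.03, SE 0.20, limma adjusted p = 0.17) and Kpna3 (SE 0.26, adjusted p = 0.18) the largest. The effect was -0.56 early and 0.48 late on Kpna4, and -0.61 early and 0.39 late on Kpna3. The other 9 were Kpna2, Xpo1, Ranbp9, Nup54, Nup153, Kpnb1, Nup50, Kpna1 and Pom121, with differences of 0.31 to 0.76.

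Xpo6 was the 1 member that passed unadjusted in the opposite direction (-0.45, SE 0.15, limma adjusted p = 0.23), from 0.34 early to -0.11 late. The members' median was 0.20, against 0.12 over all genes. Without the 4 h pair it was 0.09 (0.10 over all genes), and without the 2 h pair 0.34 (0.13 over all genes). With the libraries centred on their medians, the members' median was 0.06 and that of all genes -0.03. Then 29 members lay above 0 and 25 below (45.6% of all genes above), against 42 and 12 before (65.6% above). Unadjusted, 7 members passed with this centring, 4 of them higher late and 3 lower, as did 12.7% of all genes.

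Other genes of the pathway, from a list of 35 of which 34 were in the table, did not show the excess of lower genes at 4 h. Of all genes, 8.9% were higher and 19.8% lower at that hour, and the median of the 33 genes listed there was -0.09, against -0.08 over all genes. Of the 33, 1 was higher (Sec13 of the Y complex, log2(fold change) 0.40) and 3 were lower. The 3 were Ahctf1, which seeds pore assembly on chromatin (-0.49), Nup42 (-0.48), which the table lists as Nupl2, and Hikeshi, the importer of heat shock protein 70 (-0.41). At 2 h Thoc2 of the mRNA export complex was higher (0.43), at 6 h Seh1l of the Y complex (0.47) and at 8 h Nxt2, a paralog of Nxt1 (0.39), and none was lower at these hours. In the 3 limma models none of the 33 tested passed.

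Of 14 genes of the nuclear lamina and envelope, 3 were higher at 4 h and 2 were lower, where 8.9% of all genes were higher and 19.8% lower. The higher ones were Tor1aip2 (log2(fold change) 0.60), the chromatin-binding Banf1 (0.44) and the lamin gene Lmnb2 (0.43). The lower ones were Lemd3 (-0.92) and Tor1aip1 (-0.62), both proteins of the inner nuclear membrane. At 6 h Lemd3 (0.56) and Tor1aip1 (0.57) were higher and Tor1aip2 (-0.52) was lower, so all 3 had the opposite sign to that at 4 h. Of 10 neuroblastoma genes with an FPKM of at least 1 at 4 h, 3 were lower with HU210 at that hour and 3 were higher at 6 h. Of all genes, 19.8% were lower at 4 h and 6.26% higher at 6 h. The part of the neuroblastoma genes in the differences of the pore and transport genes was not tested.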

How the data were processed

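Poly(A) RNA of 8 pooled N2A samples was sequenced. According to the submitters' processing notes and the paper's methods, the authors aligned the reads to mm9 with TopHat2 2.0.8 (with Bowtie2 2.1.0 and SAMtools 0.1.7) against Ensembl gene models, and computed upper-quartile normalized FPKM with Cufflinks, corrected for reads that map to several places and for fragment bias. The FPKM were deposited by the authors as FPKM + 1, and the 1 was taken off here. Upper-quartile scaling makes values relative within a library, and correction of reads shared by near-identical genes can move values between paralogs. The deposited tables also hold the authors' own fold changes, p-values and lists of differentially expressed genes, which were not used.

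The groups came from the sample labels. Per time point, 1 library was compared with 1, without a test. The 3 models were fitted with limma 3.58.1 (R 4.3.3, eBayes with a variance trend) on log2(FPKM + 1) of 11311 genes listed at all 4 time points with a mean FPKM of at least 1, with Benjamini-Hochberg adjustment over all of them. Their p-values measure the spread between pooled libraries. Nothing in the labels says which experiments went into which pool. Alternatives were a pseudocount of 0.1, no filter, a 1.5-fold cutoff, pairs scaled to a median ratio of 1, the 4 DMSO libraries averaged as reference, subtraction of a trend on GC content and transcript length (loess, span 0.3, degree 1), and for the models also no variance trend, no time term, the hour as a number, each treatment alone, and each time point left out. The mean of the other 3 DMSO libraries as reference was added after the data had been seen. The limma models and the trend subtraction were tested on simulated data, with noise of a fixed size that was not taken from these genes.

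The members and gene lists were chosen with earlier results of these data known. Members were grouped by role, and values in every library were given for those past 1.3-fold that were among the 3 largest in either direction at a time point, and for a few named as chosen later. Gene positions, GC content and exon overlaps are from GENCODE vM1 on mm9, and promoter windows from RefSeq on GRCm38.p6. Python 3.11.15, pandas 2.3.3 and matplotlib 3.10.9 were used. Proteomic and siRNA data were not analysed here.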

Additional observations from a re-analysis of the deposited data

How the results depend on the processing

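With 1 library per condition, no read counts and 4 hours in the place of replicates, the precision of a single difference is not known. A pseudocount of 0.1 or no filter on FPKM left all 32 single differences of members past 1.3-fold, and centred pairs left 28 of them past it. With a 1.5-fold cutoff, 8 members were lower and 0 higher at 4 h, where 8.50% of all genes were lower and 2.73% higher. At 6 h 0 members were higher (1.63% of all genes), and at 8 h 1 was (0.99%). With the mean of the 4 DMSO libraries as reference, 5 members were lower and 0 higher at 4 h (median -0.12). Of all genes, 5.39% were lower and 2.11% higher there. At 6 h 2 members were lower (1.07% of all genes) and 0 higher (2.70%), and at 8 h 0 were higher (1.77%). After subtraction of the GC and length trend, 9 members were lower at 4 h (median -0.070), where 9.19% of all genes were lower. At 6 h 0 members were higher (2.93% of all genes), and at 8 h 1 was (2.08%). The mean of the other 3 DMSO libraries as reference was chosen after the data had been seen. With it, 1 member was higher and 1 lower at 2 h (Ran and Ipo8). Of all genes, 4.36% were higher and 5.70% lower there. At 4 h 2 members were lower (3.04% of all genes) and 0 higher (1.41%), with a median of -0.073. At 6 h 2 were lower (Nup54 and Nup85, 1.89% of all genes) and 0 higher (3.24%), and at 8 h 0 were higher (2.33%). Under this reference Kpna3 at 6 h (-0.020) and Nxt1 at 4 h (0.060) changed sign. The cause of these differences between settings was not tested. In the 3 limma models, 0 members passed the adjusted p under every alternative run, those that left out a time point included. Without a filter, 7 genes outside the family passed in the model of the late against the early drug effect.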

Other observations

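The members that varied least were named after their values had been seen. Nup205 and Nup188, the large scaffold proteins of the inner ring, had an FPKM of 57.6 to 62.2 and of 39.6 to 43.1 over the 8 libraries. The importer Tnpo2 had 41.9 to 45.6 and the exportin Xpo5 39.1 to 43.3, so that none of these 4 genes had an extreme in the 4 h libraries of the size seen for Kpna2 (35.7 to 83.7).

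The course from the early to the late hours was also fitted with each treatment alone. In the 4 DMSO libraries, 0 genes passed an adjusted p of 0.05 in limma, and 8 of 54 members passed unadjusted, all lower late, as did 11.1% of all genes. The members' median log2 difference was -0.15, against -0.06 over all genes. In the 4 HU210 libraries 0 genes passed the adjusted p, and 6 members passed unadjusted, 3 in each direction, as did 14.6% of all genes, with a members' median of 0.04 against 0.06 over all genes. A difference between the treatments is tested in the model of the late against the early drug effect, in which no member passed the adjusted p.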
